A study of Mus musculus with 12 samples.

Results

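The T cell receptor has no enzyme activity of its own. Its antigen-binding chains are held together with the CD3 gamma, delta and epsilon chains and the zeta chain, whose cytoplasmic tails are phosphorylated by the kinase LCK, which the coreceptor CD4 carries. The kinase ZAP-70 docks on the phosphorylated tails and in turn phosphorylates the scaffold LAT and the adaptor SLP-76, on which the enzymes of the next steps assemble. The 9 genes described here encode these proteins: *Cd3e*, *Cd3d*, *Cd3g*, *Cd247* (zeta chain), *Cd4*, *Lck*, *Zap70*, *Lat* and *Lcp2* (SLP-76). They were matched by symbol, 9 of 9 among 49585 genes in the count files, and were followed in all 12 libraries.

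Control mice were *Rnmt* fl/fl CD4cre - and *Rnmt* cKO mice *Rnmt* fl/fl CD4cre +, all female and on a C57B6/J background, so that both genotypes carried loxP sites around exon 3 of *Rnmt* and only the cKO the Cd4-driven Cre transgene (Tg(Cd4-cre)1Cwi), which is active from the double positive thymocyte stage onwards. *Rnmt* encodes the enzyme that methylates the guanosine cap of mRNA. The ages of the mice were not given in the sources used here. Naïve CD4 T cells from lymph nodes of either genotype were purified magnetically and activated for 20 h on plates coated with anti-CD3 (5 µg/ml) and anti-CD28 (1 µg/ml), with 0.1 mg/ml cycloheximide added for 1 min before lysis. Cytoplasmic total RNA and ribosome protected fragments (RPFs, the stretches of mRNA covered by ribosomes) were sequenced, with 3 libraries for each genotype and kind. Between 15079703 and 22629563 reads were counted on genes in total RNA libraries and between 4123271 and 10661356 in RPF libraries, the lowest being *Rnmt* cKO RPF replicate 3. The labels do not say whether each library came from its own mouse, so p-values measure the spread between these samples. In bulk libraries fewer cells of a type and less RNA per cell cannot be told apart, and every level is relative to the other genes of its library. The authors reported less mRNA per cell in activated *Rnmt* cKO cells than in controls. Per cell, by their account, decreases are then larger and increases smaller than such relative values show. Levels per cell were not measured by these counts, and rose, fell and not passing the test are meant in relative terms throughout.

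*Cd3g*, *Cd3d* and *Cd3e* lie side by side on chromosome 9, within 40.1 kb (GRCm38). *Cd3g* (44969572 to 44980431, minus strand) and *Cd3d* (44981786 to 44987339, plus strand) point away from each other, with 1355 bases between their starts, and *Cd3e* (44998740 to 45009627, minus strand) faces *Cd3d* across 11401 bases. The other genes are spread over the genome: *Cd247* (chromosome 1, 165788681 to 165877277, plus), *Zap70* (chromosome 1, 36761798 to 36782818, plus), *Lck* (chromosome 4, 129548344 to 129573641, minus), *Cd4* (chromosome 6, 124864692 to 124888221, minus), *Lat* (chromosome 7, 126363824 to 126369570, minus) and *Lcp2* (chromosome 11, 34046920 to 34092295, plus). Since the cap joins the first transcribed base, the bases around the RefSeq start sites (GRCm38.p6) are shown for 8 of the 9 genes. The set of starts used here held none for *Cd4*. Each stretch holds 20 bases before the annotated start and 10 from it on, in the direction of the gene, with the base at that start in capitals. The starts used in these cells were not measured. The RefSeq starts of *Cd3e* (45009611), *Lat* (126369568) and *Lcp2* (34046928) lie inside the gene bounds above, which came from GENCODE, so the 2 annotations place the first transcribed base differently. *Lck* has separate distal and proximal starts and both are given, and of the 3 starts of *Zap70* the most upstream.
Cd3g, chr9:44980422-44980451, minus: ctactcagagtcccagctcaAtgcatgctg
Cd3d, chr9:44981766-44981795, plus: agttcctcccccactcttccTttttctgaa
Cd3e, chr9:45009602-45009631, minus: acacttcctgtgtggggttcAgacacctgc
Cd247, chr1:165788661-165788690, plus: gtcttgctggcaggtgctgtCtcaaaggcc
Lck, distal start, chr4:129573632-129573661, minus: ctcaggagacaggaagtcagGgtggaacgt
Lck, proximal start, chr4:129558363-129558392, minus: aacttggtgcttgagggctcAgagggaacc
Zap70, chr1:36761778-36761807, plus: tttgacgtcaacttcaaacaCggctctctt
Lat, chr7:126369559-126369588, minus: tgatttcctgccctcaccacAgcttcctgt
Lcp2, chr11:34046908-34046937, plus: acactggagtttaagcccccTttgttcctc

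*Rnmt* itself was read first, as a check of the labels. In total RNA it was at 95.3, 93.9 and 94.1 CPM (read counts relative to library size, scaled by TMM) in the controls and at 29.3, 32.3 and 30.4 in the *Rnmt* cKO libraries. In RPF it was at 104, 87.7 and 98.7 against 10.5, 10.3 and 9.57 CPM. Every *Rnmt* cKO library was thus below every control library of its kind, and the labels held in all 12. The fitted change was -1.62 on the log2 scale in total RNA (SE 0.062, edgeR quasi-likelihood test with Benjamini-Hochberg adjustment, adjusted p = 5.84e-06) and -3.24 in RPF (SE 0.100, edgeR adjusted p = 4.81e-06).

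In *Rnmt* cKO cells the mRNAs of *Cd3g*, *Lck*, *Zap70* and *Cd3d* fell, that of *Lcp2* rose, and *Cd3e*, *Cd247*, *Cd4* and *Lat* did not pass the test. In total RNA 4 of the 9 genes were decreased, where 28.0% of the 11519 genes tested were, and 1 was increased, where 26.3% were. In RPF the same 4 were decreased (15.7% of 11428 genes tested) and 0 were increased (14.1%), by edgeR at an adjusted p of 0.05. At an unadjusted p of 0.05, or by DESeq2 (1469 of all 11428 genes tested), 1 gene (*Cd247*) was increased in RPF. The share of all genes at an unadjusted p is not given here, so nothing is read from counts at that threshold. All 9 genes passed the filter on low counts in both kinds of library. Their median log2 change was -0.16 in total RNA and -0.17 in RPF, beside medians of -0.0037 and 0.0080 over all genes tested, and ran from -1.23 to 0.51 and from -0.94 to 0.31. In total RNA the genotypes did not overlap in 6 of the 9 genes (*Cd3d*, *Cd3g*, *Cd4*, *Lck*, *Zap70* and *Lcp2*), against 62.3% of all genes tested, and in RPF in 4 (46.5%). For a single gene an exact two-sided permutation test of 3 against 3 libraries cannot go below p = 0.1, the value reached by each of these.

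**Figure D1:**
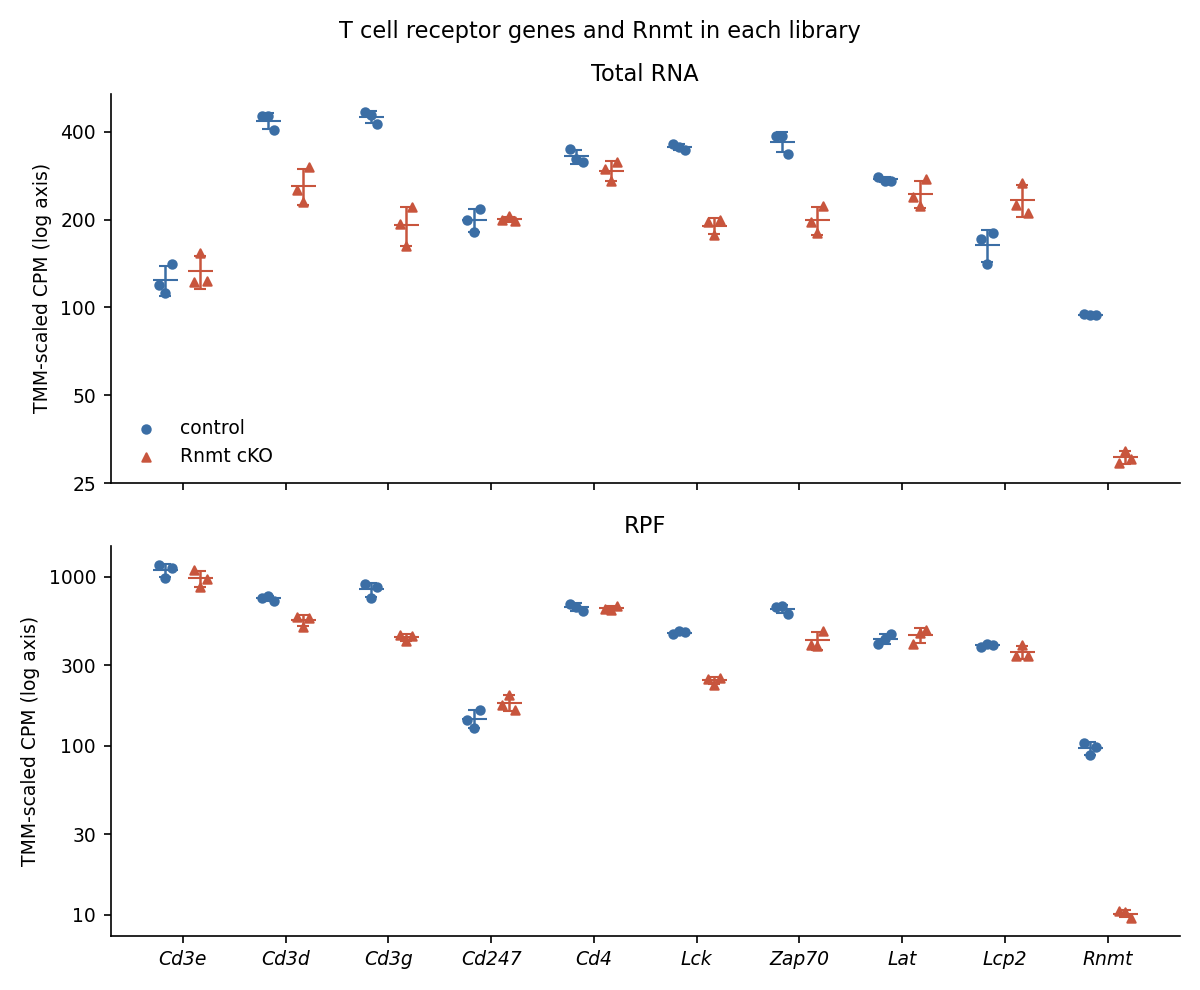
Level of each T cell receptor gene and of Rnmt in each library, in TMM-scaled CPM on a log axis, for total RNA (top) and RPF (bottom); points are single libraries, horizontal bars means and whiskers SD (n = 3). The Rnmt cKO libraries of Cd3d, Cd3g, Lck and Zap70 sit below all control libraries in both panels, and those of Lcp2 above them in total RNA alone.

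Of the CD3 chains, *Cd3g* changed the most. Its total RNA was at 467, 455 and 427 CPM in the controls and at 194, 162 and 221 in *Rnmt* cKO, on 2857 to 8824 counts per library. Its RPFs were at 908, 750 and 864 CPM against 454, 416 and 445. The highest *Rnmt* cKO library was well below the lowest control in both. *Cd3g* mRNA was 2.34-fold lower in *Rnmt* cKO (log2 change -1.23, SE 0.11, edgeR adjusted p = 7.52e-05) and its RPFs 1.92-fold lower (-0.94, SE 0.084, edgeR adjusted p = 0.000212).

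*Cd3d*, the neighbour that is transcribed away from *Cd3g*, fell by less. In total RNA it was at 453, 452 and 404 CPM in the controls and at 252, 229 and 303 in *Rnmt* cKO. In RPF it was at 751, 769 and 715 CPM against 580, 506 and 573. Again the genotypes did not overlap, and *Rnmt* cKO replicate 3 was the nearest to the controls in total RNA. The mRNA was 1.67-fold lower (-0.74, SE 0.11, edgeR adjusted p = 0.000726) and the RPFs 1.35-fold lower (-0.43, SE 0.073, edgeR adjusted p = 0.00364).

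*Cd3e*, whose product pairs with both the gamma and the delta chain, did not pass the test in either kind of library. Its total RNA was at 119, 112 and 141 CPM in the controls and at 122, 153 and 124 in *Rnmt* cKO, and the genotypes overlapped. In RPF it was at 1172, 987 and 1134 CPM against 1093, 874 and 965, again with overlap. The log2 change was 0.10 in total RNA, with a 95% interval from -0.16 to 0.36 (edgeR adjusted p = 0.474), and -0.17 in RPF, from -0.40 to 0.06 (edgeR adjusted p = 0.242). With single libraries left out it ran from 0.004 to 0.196 in total RNA and from -0.25 to -0.088 in RPF. Of its exonic bases 3.3% overlap *Gm48719* on the opposite strand, and the counts used were those of the gene's own strand.

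*Cd247*, the zeta chain with the most phosphorylation motifs of the complex, was at 200, 181 and 217 CPM in total RNA of the controls and at 199, 205 and 198 in *Rnmt* cKO. The log2 change was 0.01, with a 95% interval from -0.16 to 0.18 (edgeR adjusted p = 0.912). In RPF it was at 142, 128 and 163 CPM against 175, 200 and 162, where the lowest *Rnmt* cKO library lay just under the highest control. This RPF difference, 0.31 with an interval from 0.07 to 0.56, did not pass the threshold (edgeR adjusted p = 0.0573). It passed when control replicate 3 (0.40, edgeR adjusted p = 0.0306) or *Rnmt* cKO replicate 3 (0.38, edgeR adjusted p = 0.0349) was left out. Exons of *Pou2f1* on the opposite strand overlap 56.4% of its exonic bases, and those of *Gm16565* on the same strand 3.9%. On the same strand *Mir8119* also overlaps 0.9% of the exonic bases of *Lck*, and *Mir7058* 2.7% of those of *Lat*.

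Within a library, the scaling cancels when the counts of one chain are divided by those of another, and so does gene length when such ratios are compared between genotypes. These ratios were formed after the values above had been seen. In total RNA there were 3.92, 4.05 and 3.04 *Cd3g* counts per *Cd3e* count in the controls and 1.59, 1.06 and 1.78 in *Rnmt* cKO, and in RPF 0.775, 0.760 and 0.762 against 0.416, 0.476 and 0.461. *Cd3d* counts per *Cd3e* count were 3.8, 4.02 and 2.88 against 2.07, 1.5 and 2.45 in total RNA. In RPF they were closer, 0.641, 0.779 and 0.631 against 0.530, 0.579 and 0.594. *Cd3g* was also lower relative to *Cd3d*, going from 1.03, 1.01 and 1.06 to 0.767, 0.708 and 0.730 counts per count in total RNA and from 1.21, 0.976 and 1.21 to 0.783, 0.823 and 0.777 in RPF. The genotypes did not overlap in any of these 6 sets, nor in any of the 16 formed, and since the ratios were formed from values already seen this is a description without a test. For *Cd3d* per *Cd3e* in RPF the control libraries alone differed by more than the group means, 0.683 and 0.568.

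**Figure D2:**
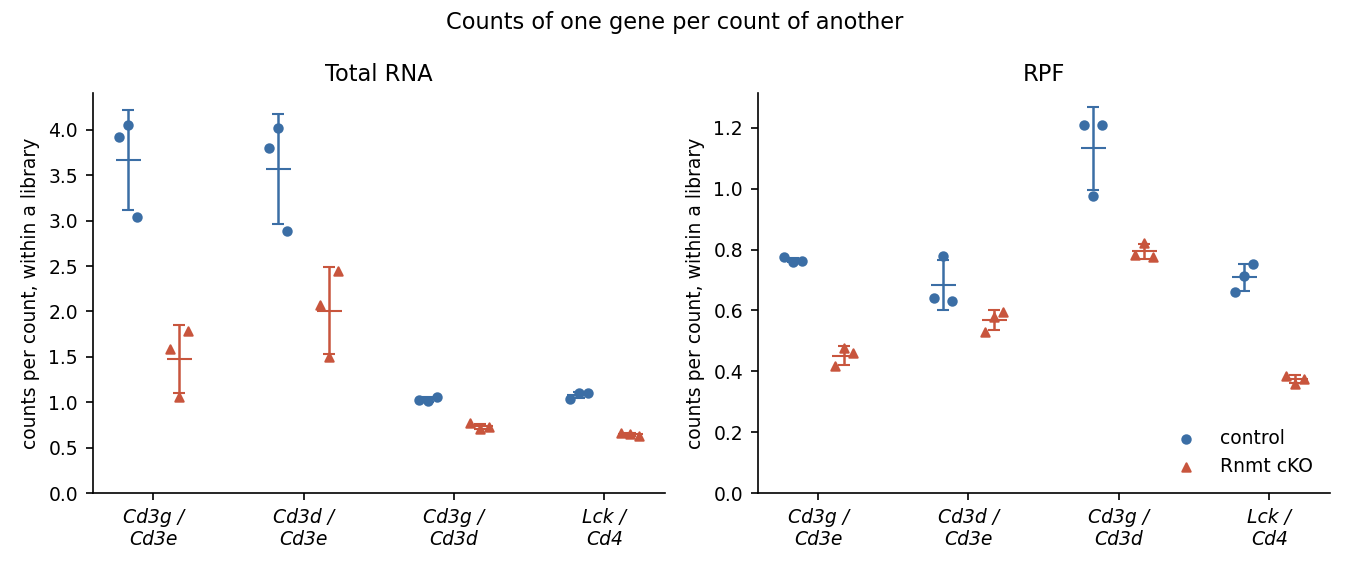
Counts of one gene per count of another within each library, for total RNA (left) and RPF (right), on linear axes from 0; points are libraries, horizontal bars means and whiskers SD (n = 3). All 4 ratios are lower in each Rnmt cKO library than in each control library, with Cd3g per Cd3e falling from 3.67 to 1.48 on average in total RNA.

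The antigen-binding chains were followed through their constant genes, which the counting treats as separate features although *Trbc1* and *Trbc2* are close copies of each other and reads could be split between them. Of 7 constant genes 6 were tested in total RNA, of which 3 fell and 3 rose, and 5 in RPF, of which 2 fell and 1 rose, beside 28.0% and 26.3% of all genes in total RNA and 15.7% and 14.1% in RPF. *Trbc1* (-0.41, edgeR adjusted p = 0.00428), *Trac* (-0.33, edgeR adjusted p = 0.0167) and *Trbc2* (-0.27, edgeR adjusted p = 0.0310) fell in total RNA, and *Trac* (-0.46, edgeR adjusted p = 0.0112) and *Trbc1* (-0.27, edgeR adjusted p = 0.0408) in RPF. The genes that rose encode the gamma delta receptor, at far lower levels. *Trdc* was at 7.02 CPM on average in control total RNA and 19.7 in *Rnmt* cKO (1.49, edgeR adjusted p = 2.98e-05), and in RPF it rose by 1.32 (edgeR adjusted p = 0.000780). *Tcrg-C4* was at 0.741 to 1.11 CPM in control total RNA and 1.96 to 3.10 in *Rnmt* cKO, and *Tcrg-C2* at 0.377 to 1.00 against 1.18 to 2.10. Both reached the filter of more than 1 CPM in 3 libraries only through the *Rnmt* cKO libraries, so their values are a description and nothing is read from the count of constant genes that rose.

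The coreceptor and its kinase parted. *Cd4* total RNA was at 349, 323 and 315 CPM in the controls and at 297, 270 and 315 in *Rnmt* cKO, and its RPFs at 692, 666 and 626 against 646, 635 and 672. The total RNA values touched without overlapping (314.9 against 314.8 CPM at the boundary), and the RPF values were mixed. The log2 change was -0.16 in total RNA (95% interval -0.34 to 0.01, edgeR adjusted p = 0.102) and -0.02 in RPF (-0.17 to 0.12, edgeR adjusted p = 0.818). The Cre transgene of the cKO is driven by *Cd4* regulatory sequence. The total RNA change of *Cd4* was -0.20 without *Rnmt* cKO replicate 3 (edgeR adjusted p = 0.0482) and -0.086 without replicate 2 (edgeR adjusted p = 0.364). In the 3 libraries lowest in B cell markers, of which 1 was *Rnmt* cKO, it was -0.072.

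*Lck* total RNA was at 363, 356 and 346 CPM in the controls and at 197, 177 and 199 in *Rnmt* cKO. In RPF it was at 459, 474 and 470 CPM against 250, 229 and 252. These were among the tightest groups of the 9 genes, and they were far apart. *Lck* mRNA was 1.86-fold lower (-0.90, SE 0.065, edgeR adjusted p = 3.25e-05) and its RPFs 1.92-fold lower (-0.94, SE 0.061, edgeR adjusted p = 6.36e-05). *Lck* counts per *Cd4* count went from 1.04, 1.1 and 1.1 to 0.661, 0.653 and 0.631 in total RNA and from 0.662, 0.712 and 0.751 to 0.386, 0.360 and 0.375 in RPF.

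*Zap70* followed *Lck* in direction. Its total RNA was at 387, 387 and 336 CPM in the controls and at 196, 180 and 223 in *Rnmt* cKO, and its RPFs at 659, 674 and 604 against 396, 390 and 480. No *Rnmt* cKO library reached a control library, and *Rnmt* cKO replicate 3 was the highest of its group in both kinds. The mRNA was 1.85-fold lower (-0.89, SE 0.096, edgeR adjusted p = 0.000181) and the RPFs 1.53-fold lower (-0.62, SE 0.093, edgeR adjusted p = 0.00215).

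Neither substrate of ZAP-70 was decreased by the test. *Lat* total RNA was at 280, 272 and 271 CPM in the controls and at 238, 223 and 275 in *Rnmt* cKO, with a log2 change of -0.16 (95% interval -0.35 to 0.03, edgeR adjusted p = 0.125). Its RPFs were at 399, 426 and 459 CPM against 398, 468 and 485, a change of 0.07 (-0.13 to 0.28, edgeR adjusted p = 0.567). *Rnmt* cKO replicate 3 was the library that overlapped the controls in total RNA, and without it, the *Rnmt* cKO library lowest in B cell markers, the change was -0.24 (edgeR adjusted p = 0.0108). Without *Rnmt* cKO replicate 2 it was -0.078 (edgeR adjusted p = 0.432), so that the size of the change rested on single libraries.

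*Lcp2* was the gene of the 9 that rose relative to the other genes of its library, which need not be a rise per cell. Its total RNA was at 171, 141 and 180 CPM in the controls and at 224, 266 and 211 in *Rnmt* cKO, all 3 above the controls. Its RPFs were at 383, 399 and 395 CPM against 338, 396 and 341, with overlap and with *Rnmt* cKO replicate 2 among the controls. The mRNA was 1.43-fold higher (0.51, SE 0.11, edgeR adjusted p = 0.00614), whereas the RPF change was -0.13 (95% interval -0.30 to 0.04, edgeR adjusted p = 0.220). Opposite-strand *4930469K13Rik* overlaps 6.3% of its exonic bases.

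**Figure D3:**
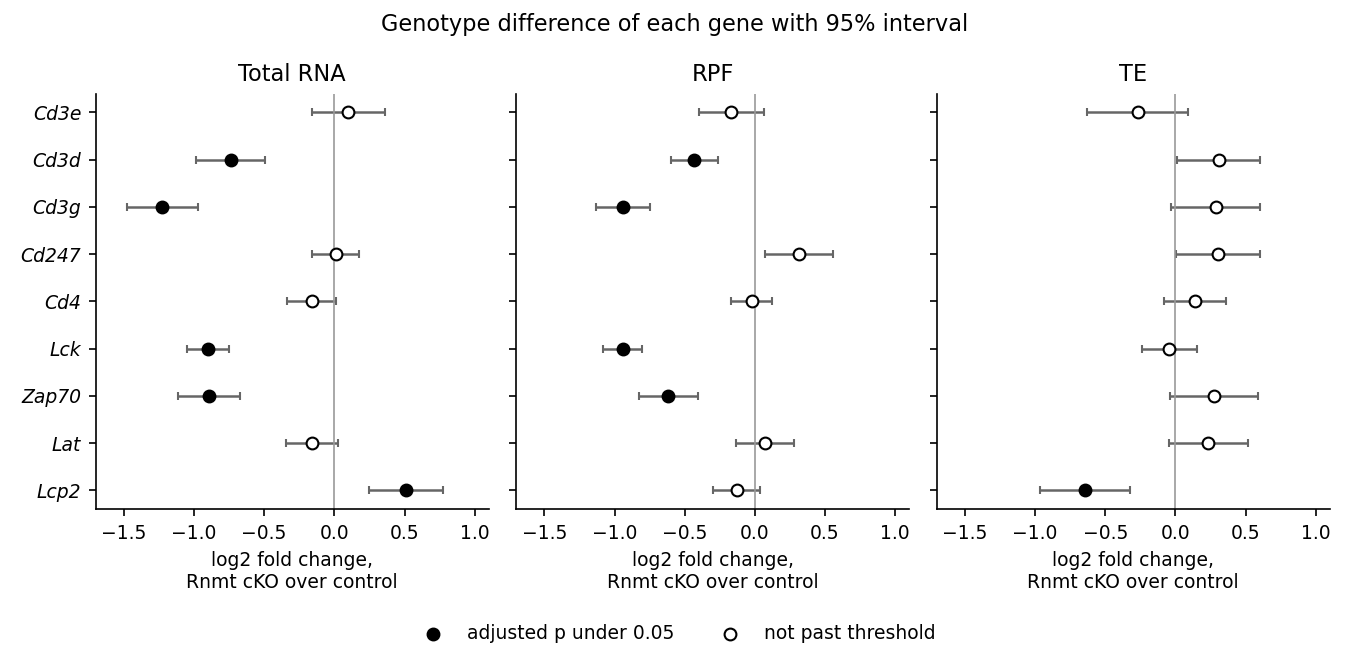
Log2 fold change of each gene, Rnmt cKO over control, with its 95% interval, in total RNA (left), RPF (middle) and TE (right); filled points passed an edgeR adjusted p of 0.05 and open points did not. Cd3d, Cd3g, Lck and Zap70 are filled and below 0 in the first pair of panels, and Lcp2, at -0.64, is the filled point of the TE panel.

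Translational efficiency (TE), the change of RPFs relative to that of mRNA, was tested in 1 model of the 12 libraries, as the difference between the genotype effects on RPF and on total RNA. This model did not pair total RNA and RPF libraries of the same number. *Lcp2* had a decreased TE, by 0.64 on the log2 scale (SE 0.15, edgeR adjusted p = 0.0157), and none of the other 8 genes passed, so that 1 of 9 was decreased where 6.57% of 10668 genes tested were, and 0 of 9 increased where 3.24% were. The *Lcp2* call was lost without control replicate 1 (-0.70, edgeR adjusted p = 0.0511), control replicate 2 (-0.53, edgeR adjusted p = 0.0735) or *Rnmt* cKO replicate 1 (-0.64, edgeR adjusted p = 0.0598). When a replicate block paired the libraries, *Lcp2* was at -0.65 (edgeR adjusted p = 0.00395). None of the other 8 genes passed in that fit, with *Cd247* the nearest (edgeR adjusted p = 0.059). The TE changes of *Cd3d* (0.31, 95% interval 0.01 to 0.61), *Cd247* (0.30, 0.003 to 0.61), *Cd3g* (0.29, -0.03 to 0.60), *Zap70* (0.28, -0.04 to 0.59) and *Lat* (0.23, -0.05 to 0.52) had edgeR adjusted p from 0.186 to 0.293. At an unadjusted edgeR p of 0.05, 2 of the 9 genes (*Cd3d* and *Cd247*) would have counted as increased. The share of all genes at that threshold is not given here, so nothing is read from these 2. By DESeq2 0 of the 9 were increased, where 396 of all 10668 genes tested were. *Cd4* was at 0.14 (-0.08 to 0.36), *Lck* at -0.04 (-0.24 to 0.15) and *Cd3e* at -0.27 (-0.63 to 0.09). With single libraries left out, *Cd4* ran from 0.087 to 0.165, *Lck* from -0.082 to -0.020 and *Cd3e* from -0.42 to -0.091. The median TE change of the 9 genes was 0.23, beside 0.035 over all genes tested.

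How many RPF reads a gene had for its share of total RNA varied widely among the 9 genes, and *Cd3e* stood at the edge. Its RPF share was 8.85-fold its total RNA share in the controls (log2 3.15, SE 0.13) and 7.35-fold in *Rnmt* cKO (2.88, SE 0.13), which ranked it 87 and 103 of 10668 genes from the top. *Lcp2* went from 2.39-fold (1.26, SE 0.11) to 1.53-fold (0.62, SE 0.11), and *Cd247* was the lowest, at 0.724-fold (-0.47, SE 0.098) in the controls and 0.894-fold in *Rnmt* cKO. *Cd4*, *Cd3g*, *Zap70*, *Cd3d*, *Lat* and *Lck* lay between 1.32-fold and 2.01-fold in the controls. Over all genes the median was 0.18 on the log2 scale in the controls, with quartiles of -0.47 and 0.78, and 0.20 in *Rnmt* cKO. The ratio depends on how much of the transcript is coding as well as on ribosome load. The annotated exons of *Cd3e* add up to 4.08 kb, of which 0.567 kb is coding, and this was not separated.

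**Figure D4:**
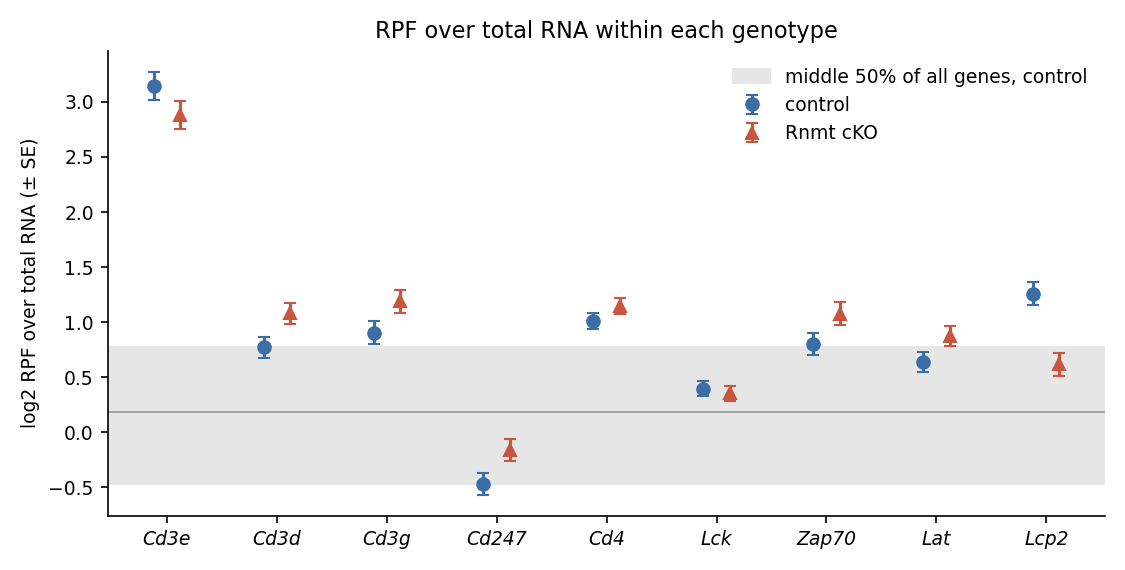
Log2 of RPF over total RNA for each gene in control and Rnmt cKO cells, with SE from the fit over 12 libraries; the grey band holds the middle 50% of all genes in the controls and the line their median. Cd3e lies far above the band in both genotypes, Cd247 at its lower edge in the controls, and Lcp2 moves from 1.26 to 0.62.

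Levels of different genes were compared per length. Lengths were all exonic, or all coding, bases of a gene over its annotated transcripts together. The mRNA present in these cells can be shorter, which would make its level per kb too low, and this was not separated. In total RNA of the controls, per kb of exon, the order was *Cd3d* (240 ± 15.4 CPM per kb, SD, n = 3), *Cd3g* (138 ± 6.38), *Zap70* (124 ± 9.91), *Lck* (121 ± 2.95), *Lat* (99.2 ± 1.71), *Cd4* (81.6 ± 4.46), *Cd247* (37.4 ± 3.39), *Lcp2* (36.7 ± 4.54) and *Cd3e* (30.4 ± 3.59). The neighbours *Zap70* and *Lck*, *Cd247* and *Lcp2*, and *Lcp2* and *Cd3e* overlapped in their ranges, and the other neighbours did not. In *Rnmt* cKO *Cd3d* remained the highest at 144 ± 20.7 CPM per kb, *Lat* (88.7 ± 9.59) and *Cd4* (73.0 ± 5.55) came next, and *Cd3g* stood at 58.8 ± 8.98, *Zap70* at 66.8 ± 7.39 and *Lck* at 65.1 ± 4.16. There the ranges of *Cd4*, *Zap70*, *Lck* and *Cd3g* overlapped with each other. This order depends on the length used: per coding kb *Cd3g* (824 CPM per kb) was above *Cd3d* (713) in control total RNA, and *Lcp2* (97.0) and not *Cd3e* (219) was the lowest.

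On ribosomes the order was another. Per coding kb the control RPFs were highest for *Cd3e* (1936 ± 172 CPM per kb), followed by *Cd3g* (1540 ± 149), *Cd3d* (1217 ± 44.9), *Lat* (590 ± 41.4), *Cd4* (482 ± 24.4), *Zap70* (348 ± 19.7), *Lck* (300 ± 5.23), *Lcp2* (232 ± 5.01) and *Cd247* (184 ± 22.5), and the ranges of no neighbours overlapped. In *Rnmt* cKO *Cd3e* was at 1724 ± 194, *Cd3d* at 903 ± 67.1 and *Cd3g* at 803 ± 36.7 CPM per kb, of which *Cd3d* and *Cd3g* overlapped in their ranges. *Lck* (156 ± 8.19) was then the lowest, below *Cd247* (229 ± 24.8), *Zap70* (228 ± 27.3) and *Lcp2* (212 ± 19.3), which overlapped with each other.

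Across the 12 libraries, after centring log2 CPM within each kind, *Cd3d*, *Cd3g*, *Lck* and *Zap70* moved closely together. Pearson's r between them ran from 0.933 (*Cd3d* and *Lck*) to 0.979 (*Cd3d* and *Zap70*). The points share the genotype contrast, so r follows largely from the changes already given and is a description without a test. *Cd3e* had an r of 0.02 with *Cd3g* and -0.11 with *Cd3d*, and *Lcp2* was opposed to *Cd4* (-0.72) and *Cd3d* (-0.71). Among 6670 genes, the gene outside the 9 with the pattern most like each was *Spg20* for *Cd3g* (r = 0.997), *Add1* for *Lck* (0.996), *Psmg2* for *Zap70* (0.993), *Papss1* for *Cd3d* (0.987), *Fmnl1* for *Lcp2* (0.973), *Ndor1* for *Cd247* (0.918), *Stambpl1* for *Cd4* (0.913), *Dad1* for *Lat* (0.902) and *Il2rg* for *Cd3e* (0.880).

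A further 68 genes of the pathway were taken in 5 lists. In total RNA 67 were tested, of which 29 fell and 17 rose (*Tcrg-C2* and *Tcrg-C4* among them), where 28.0% and 26.3% of all genes tested did, with a median log2 change of -0.13. In RPF 66 were tested, of which 26 fell and 9 rose, where 15.7% and 14.1% of all genes did (median -0.19). In TE 6.57% of all genes were decreased and 3.24% increased by edgeR. Of 66 pathway genes 5 were decreased (2 without control replicate 1 or without control replicate 2) and 0 increased. By DESeq2 7 were decreased and 1 increased, where 819 and 396 of all 10668 genes tested were. At an unadjusted p of 0.05, 5 were increased, with no share of all genes to set beside them, so nothing is read from these 5. With total RNA and RPF libraries paired by a replicate block, edgeR called 6 decreased and 1 increased, where 777 and 426 of all 10668 genes were.

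Among the other kinases, *Txk* and *Fyn* fell and *Tec* rose in total RNA, 2 and 1 of 5 (28.0% and 26.3% of all genes). *Txk*, a Tec family kinase of T cells, changed by -0.97 (26.9 to 13.8 CPM, edgeR adjusted p = 0.000239) and *Fyn*, the other Src family kinase of the receptor, by -0.32 (264 to 212 CPM, edgeR adjusted p = 0.00385). *Tec* rose by 0.54 (edgeR adjusted p = 0.0108) from 4.82 CPM. In RPF *Txk* fell (-0.75, edgeR adjusted p = 0.00931) while *Tec* rose (1.18, edgeR adjusted p = 0.0266). *Syk*, which B cells use in place of *Zap70*, was at 1.34 and 5.18 CPM in total RNA and did not pass (edgeR adjusted p = 0.0880).

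Of 23 other adaptors, exchange factors and effectors, 7 fell and 5 rose in total RNA, both near the background of 28.0% and 26.3% of all genes, and 9 fell and 3 rose in RPF (15.7% and 14.1%). *Skap1*, an adaptor that couples the receptor to integrins, had the largest decrease of the list, from 147 to 41.6 CPM in total RNA (-1.82, edgeR adjusted p = 4.33e-05) and by 1.48 on the log2 scale in RPF (edgeR adjusted p = 0.000395). *Grap2*, the adaptor GADS that holds SLP-76 to LAT, fell in total RNA (-0.72, edgeR adjusted p = 4.81e-05) and RPF (-0.62, edgeR adjusted p = 0.000223). *Prkcq*, protein kinase C theta, fell likewise (-0.69, edgeR adjusted p = 0.000196, and -0.81, edgeR adjusted p = 8.04e-05). *Trat1*, a transmembrane adaptor that binds the receptor, rose in total RNA (1.13, edgeR adjusted p = 0.000221) and RPF (1.22, edgeR adjusted p = 0.000674), as did *Bcl10* (0.45, edgeR adjusted p = 0.00299, and 0.34, edgeR adjusted p = 0.0284), whose product acts in the route to NF-kappaB. *Cd2*, an adhesion receptor, rose in total RNA (0.55, edgeR adjusted p = 0.00208), and *Rasgrp1*, a Ras exchange factor, in RPF (0.25, edgeR adjusted p = 0.0282).

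*Sh2d2a*, which encodes the LCK-binding adaptor TSAd, went in opposite directions in the 2 kinds. It rose in total RNA from 99.5 to 195 CPM (0.97, edgeR adjusted p = 1.57e-05), fell in RPF from 185 to 126 CPM (-0.55, edgeR adjusted p = 0.000544) and had a TE change of -1.52 (edgeR adjusted p = 7.17e-07). The TE of *Fyb*, the adaptor ADAP (-0.51, edgeR adjusted p = 0.0140), and of *Plcg1*, phospholipase C gamma 1 (-0.43, edgeR adjusted p = 0.0294), was also decreased. In all, 3 of the 23 genes of this list were decreased in TE, where 6.57% of all genes were, and the pathway's calls in TE went down with either of 2 control libraries left out, as given above.

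Of 18 inhibitors of proximal signalling, 10 fell and 5 rose in total RNA (28.0% and 26.3% of all genes) and 10 fell and 2 rose in RPF (15.7% and 14.1%), so that those increased were near the background. The list medians were -0.33 and -0.36. *Sla*, an adaptor that promotes loss of the receptor from the surface, fell from 567 to 304 CPM in total RNA (-0.90, edgeR adjusted p = 0.000230) and by 0.79 on the log2 scale in RPF (edgeR adjusted p = 0.00166). *Ubash3b*, a phosphatase that acts on ZAP-70, fell too (-0.88, edgeR adjusted p = 0.000383, and -0.66, edgeR adjusted p = 0.0199), as did *Dgkz*, a diacylglycerol kinase, in total RNA (-0.75, edgeR adjusted p = 9.44e-05). *Ptpn22*, a phosphatase of LCK and ZAP-70, fell in RPF (-0.67, edgeR adjusted p = 0.0372). Those that rose in total RNA included the adaptor *Dok1* (1.30, edgeR adjusted p = 1.23e-05) and the ubiquitin ligases *Cblb* (1.13, from 99.8 to 219 CPM, edgeR adjusted p = 0.00404) and *Cbl* (0.66, edgeR adjusted p = 0.0458), with *Cblb* (0.77, edgeR adjusted p = 0.00311) and *Dok1* (0.67, edgeR adjusted p = 0.00117) up in RPF as well. *Dok1* (-0.62, edgeR adjusted p = 0.00184) and the phosphatase *Ptpn2* (-0.42, edgeR adjusted p = 0.0167) had a decreased TE.

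In the calcium and NFAT branch 7 of 15 genes fell and 3 rose in total RNA (28.0% and 26.3% of all genes), and 4 fell and 1 rose in RPF (15.7% and 14.1%). The inositol trisphosphate receptor *Itpr2* fell in both (-0.78, edgeR adjusted p = 5.10e-05, and -0.48, edgeR adjusted p = 0.00647) while *Itpr1* rose in both (0.36, edgeR adjusted p = 0.0156, and 0.51, edgeR adjusted p = 0.00447). The calcineurin subunits *Ppp3cc* (-0.62, edgeR adjusted p = 0.0102) and *Ppp3ca* (-0.46, edgeR adjusted p = 0.0120) fell in total RNA, where the regulatory subunit *Ppp3r1* (0.42, edgeR adjusted p = 0.0201) and the transcription factor *Nfatc3* (0.44, edgeR adjusted p = 0.00483) rose. The transcription factors *Nfatc2* (-0.58, edgeR adjusted p = 0.00473) and *Nfatc1* (-0.48, edgeR adjusted p = 0.00210) fell in RPF.

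**Figure D5:**
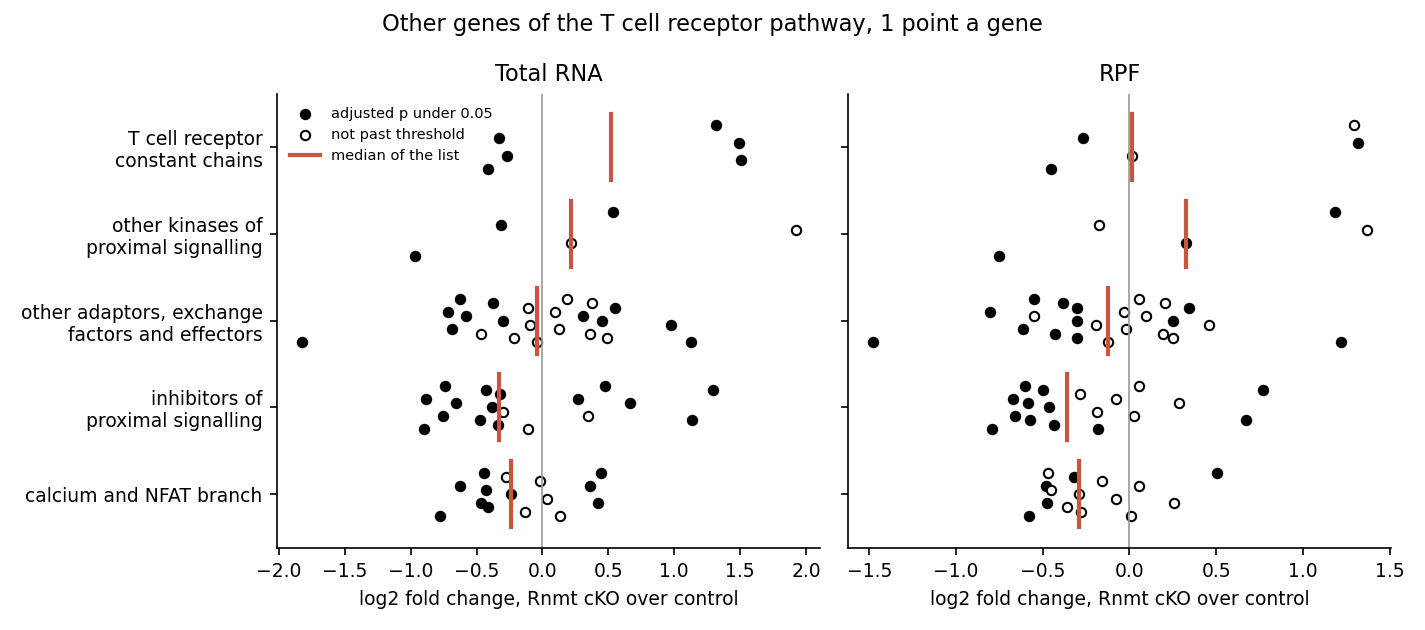
Log2 fold change, Rnmt cKO over control, of the tested genes of 5 pathway lists in total RNA (left) and RPF (right); each point is a gene, filled where its edgeR adjusted p was under 0.05, and red bars are list medians. The lists hold genes on both sides of 0, with Skap1 the point at -1.82 in total RNA and the inhibitor list centred at -0.33.

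Markers of other cells were read in the same libraries. The 6 CD4 T cell markers (*Cd3e*, *Cd3d*, *Cd3g*, *Cd4*, *Trac* and *Trbc2*), of which 4 are genes described here, summed to 2330 to 2430 CPM in control total RNA and to 1600 to 1910 in *Rnmt* cKO, with *Trbc2* the most abundant. The 7 B cell markers summed to 9.95, 6.50 and 36.3 CPM in control total RNA and to 93.9, 112 and 21.0 in *Rnmt* cKO, with *Ms4a1* (up to 41.0 CPM) the most abundant in *Rnmt* cKO and no marker at 0, and to 12.8, 8.87 and 43.9 against 141, 152 and 23.8 CPM in RPF. *Rnmt* cKO replicates 1 and 2 were thus high and replicate 3 was lower than control replicate 3, and 3 of the 5 markers tested in total RNA and 3 of the 7 tested in RPF rose, where 26.3% and 14.1% of all genes did. Several of these markers were under 1 CPM in some control libraries (*Pax5* and *Cd22* in both kinds), so that the counts are a description. The 2 CD8 markers were at 21.4, 21.3 and 41.6 CPM against 26.4, 21.3 and 9.83, and the 4 gamma delta markers at 9.27, 9.46 and 7.64 against 25.6, 21.9 and 26.3, with *Trdc* the most abundant, in total RNA. The 4 NK cell markers summed to 0.318, 0.264 and 0.269 CPM in control total RNA and to 1.83, 1.60 and 1.12 in *Rnmt* cKO, and the 6 myeloid markers to 0.0529, 0.317 and 0.108 against 1.08, 0.515 and 0.388. Both were low, with no gene above the filter, and both were higher in every *Rnmt* cKO library than in any control. With control replicates 1 and 2 against *Rnmt* cKO replicate 3, the libraries lowest in B cell markers, total RNA changed by -1.04 for *Cd3g*, -0.83 for *Lck*, -0.77 for *Zap70*, -0.56 for *Cd3d* and 0.46 for *Lcp2* on the log2 scale. In RPF the changes in these 3 libraries were -0.89 for *Cd3g*, -0.88 for *Lck*, -0.46 for *Zap70* and -0.40 for *Cd3d*. With 1 *Rnmt* cKO library these are values without a test. The gamma delta, NK and myeloid markers were higher in every *Rnmt* cKO library in total RNA, while in RPF control replicate 3 (1.22 CPM) lay among the *Rnmt* cKO libraries for the myeloid markers. Their part in the results was not tested.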

How the data were processed

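The authors made libraries of cytoplasmic total RNA and RPF with a TruSeq Ribo Profile kit, sequenced 75 bp paired ends and kept read 2, as read 1 was unusable. Cutadapt trimmed adapters, Bowtie removed rRNA and tRNA, and STAR 2.5.2b aligned the rest to mm10. They deposited whole-number counts per gene and strand, not normalized. The column for the strand of the gene was used, since it gave the normalized signal values per library, which the authors deposited in a table of 10126 genes, up to 1 factor per library. That table also holds their own log2 fold changes and p-values for total RNA, RPF and TE, which were not used. Totals that name no gene (41.1 to 70.4% of all reads) were left out. In total RNA, reads outside any feature were 5.34, 5.63 and 6.00% of all reads in the controls and 8.21, 8.14 and 7.24% in *Rnmt* cKO. Reads mapping to several places were 30.1, 29.3 and 28.7% against 25.1, 24.3 and 27.3%. In RPF the genotypes overlapped in both shares. The part of these shares in the results was not tested. Symbols and positions came from GENCODE vM21 (49326 of 49585 genes), whereas the authors counted on vM12, and start sites from RefSeq.

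A gene needed more than 1 CPM in 3 libraries or more of its kind, and for TE in both kinds. Genotypes were compared by the edgeR 4.0.16 quasi-likelihood test after TMM (R 4.3.3), p-values were adjusted over all genes tested (Benjamini-Hochberg, threshold 0.05), and intervals cover 95%. TE was the interaction of genotype and kind, since RiboDiff was not used here. Standard errors were derived from the F statistic. Log2 CPM used a prior count of 2. DESeq2 1.42.0, the edgeR exact test and other settings were alternatives. Fits were tested on simulated data. Python 3.11.15 with pandas 2.3.3, numpy 2.4.6, scipy and matplotlib 3.10.9 made tables and figures.

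The 9 genes and the lists were chosen with earlier results of these data known. The text names, of each pathway list and comparison, the called genes with the 3 largest changes in each direction, apart from 1 that is not reported here. *Syk* and *Sh2d2a* in RPF were named after their values were seen. Library pairs within a group differed by 4.62 to 39.3 in chi-square per gene, more than counting noise gives, which does not show whether they came from separate mice. Same-numbered total RNA and RPF libraries of a genotype deviated together (r from 0.12 to 0.41 over 6670 genes), so the numbers pair them for TE. The main TE model left this pairing out, and the replicate block was the alternative that held it. Between genotypes r was from -0.58 to 0.14 and the numbers do not pair.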

Additional observations from a re-analysis of the deposited data

Results flagged for a closer look

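The genotype effect on *Lcp2* differed between RPF and total RNA by the interaction test over 12 libraries, with a difference of -0.642 on the log2 scale (edgeR adjusted p = 0.0157). That on *Rnmt* differed by -1.62 (edgeR adjusted p = 3.21e-06), the RPF decrease of the deleted gene being the larger. Counts of *Rnmt* cover all its exons, of which only exon 3 is flanked by loxP sites, so reads from the other exons still count. The part of this in the *Rnmt* difference was not tested, and it is not read as a change in translation. Single libraries within the groups of 3 were not tested as outliers.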

How the results depend on the processing

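Of 440 alternative values of the log2 fold changes of the 9 genes and *Rnmt*, 422 kept their direction and their side of the threshold. Those that turned were all near 0: *Cd247* in total RNA without a filter on low counts (-0.0001142), with counts of both strands (-0.001229) and without control replicate 2 (leaving out single libraries gave -0.058 to 0.073), *Cd4* in RPF without control replicate 1 (range -0.065 to 0.0021), and *Lat* in total RNA with the libraries lowest in B cell markers (0.016), an alternative chosen after seeing the data. *Cd247* in RPF passed the threshold with DESeq2 (0.32), without the filter (0.28) and over the genes of the authors' table (0.33), so that 1 of the 9 genes was then increased in RPF. Over all genes 1469 of 11428, 1867 of 26748 and 1775 of 10126 were increased in these fits. With single libraries left out, the number of the 9 genes decreased ran from 4 to 6 in total RNA and from 0 to 1 in TE, was 4 throughout in RPF, and the number increased in RPF ran from 0 to 1. For other pathway genes, those decreased in TE ran from 2 to 7 and those increased in TE from 0 to 1. The number decreased in TE was 3 without the filter, and 1 was increased in TE with DESeq2, with at least 10 counts in every library and with the replicate block. Over all genes 524 of 23260 were decreased without the filter, and 396 of 10668, 370 of 9743 and 426 of 10668 were increased in the other fits. That block, which pairs total RNA and RPF libraries in TE, left *Lcp2* at -0.65 (edgeR adjusted p = 0.00395), and with the block by replicate number 4 of the 9 genes were decreased in total RNA and 4 in RPF. It changed no other call of the 9 genes. With the 3 libraries lowest in B cell markers, 2 of the 9 genes were decreased in RPF and 0 in TE, although the TE change of *Lcp2* was -0.64 there as in all libraries, and of other pathway genes 8 were decreased and 2 increased in RPF and 2 decreased and 1 increased in TE. Over all genes the calls in RPF also went down, from 1796 decreased and 1612 increased of 11428 to 295 and 397 of 10459. These counts rest on 1 *Rnmt* cKO library, assumed to vary like the controls, and say little about stability. Over all genes, leaving out control replicate 1 reduced the calls in TE from 701 and 346 to 415 and 125. The 18 levels per length that moved did so with coding length, and no level moved with the prior count or library size alone. The counts do not separate duplicate reads.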
